A study of Mus musculus with 4 samples.

Results

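The endoplasmic reticulum (ER) stress genes described here are 35 genes of protein folding, quality control and stress signalling, taken by symbol from the 36144 gene names in the table. All 35 were found once, and all 35 passed a filter of more than 10 counts in 2 or more libraries, as did 13979 genes in all. Bulk RNA-seq gave their expression in mouse colonic organoids (colonoids), 3-dimensional cultures grown from stem cells of the colonic crypt that hold several epithelial cell types. There were 4 libraries at passage 3, namely untreated at 48 h, 2 mM sodium butyrate at 48 h, untreated at 72 h and 2 mM sodium butyrate at 72 h, with 1 library per condition. The comparison asks how butyrate, a short-chain fatty acid made by bacterial fermentation of fibre, alters the transcriptome of these cultures. With 1 library per condition no difference at a single time could be set against replicate error, and every interval is a 95% interval that covers counting error only.

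The sample labels give the source of all 4 cultures as a wild-type male mouse aged 24 weeks, whereas the study's own account of this experiment names a single Hes1-GFP reporter mouse, so the genotype is not settled. All 4 cultures shared a medium with EGF, Noggin, R-spondin, the GSK3 inhibitor CHIR99021 and the ROCK inhibitor Y-27632, and the 4 libraries thus share an animal by that account. The labels give day 2 and day 3 for the 48 h and 72 h samples. The untreated cultures are described as untreated, and a vehicle is not named for them. Library totals lay between 20790225 and 24207840 counts, and the share taken by mitochondrial genes between 14.1% and 18.4%. Epcam, a defining gene of epithelium, had between 25463 and 33929 counts. Summed counts of 5 fibroblast markers did not exceed 24 in any library, with the fibroblast gene Pdgfra between 9 and 13, and those of 5 immune cell markers did not exceed 66.

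Proteins that enter the ER are folded there by chaperones, lectins and disulfide isomerases, and those that fail to fold are sent back to the cytosol for degradation (ER-associated degradation, ERAD). When unfolded proteins build up, 3 types of sensor in the ER membrane start the unfolded protein response. IRE1 (Ern1 and, in mucus-secreting epithelia, Ern2) splices the mRNA of the transcription factor Xbp1, ATF6 is cleaved to release a transcription factor, and PERK (Eif2ak3) phosphorylates eIF2α, which lowers general translation while raising that of Atf4. In the colon the response is known above all from goblet cells, which fold large amounts of the mucin Muc2. None of these steps of activation is a change in the number of a gene's transcripts, and the counts per gene do not show them.

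The step that gene counts cannot show for Xbp1 is given first, since it decides what its values mean. IRE1 cuts 26 bases out of the Xbp1 mRNA, and these bases lie at chr11:5524282-5524307 (GRCm38.p6, plus strand), inside the coding sequence in exon 4 of the transcript Xbp1-201 and in 3 of the 4 annotated transcripts. They are printed in capitals with their surroundings, chr11:5524265-5524324:
Xbp1: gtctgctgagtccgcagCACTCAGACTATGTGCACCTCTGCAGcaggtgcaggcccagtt
The Xbp1 counts below sum the forms with and without these bases.

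Promoter sequences (RefSeq, GRCm38.p6, from 250 bases before to 50 bases after the RefSeq start) were at hand for 30 of the 35 genes and not for Atf6, Manf, Hyou1, Derl1 and Ern2. The ER stress response element (ERSE), to which ATF6 is known to bind together with NF-Y, was searched on both strands as CCAAT and CCACG with 9 bases between them. It was found in 9 of the 30 promoters (30.0%), against 39 of all 32851 promoters of the same length (0.119%). The 9 genes were Hspa5, Hsp90b1, Calr, Canx, Pdia6, Dnajc3, Creld2, Syvn1 and Derl3, and Hsp90b1 held 2 copies. The copies of the genes that the results below turn on are shown 5′ to 3′ in the direction of the motif, with the motif in capitals:
Hspa5, chr2:34772020-34772048, plus strand, 65 bases before the start: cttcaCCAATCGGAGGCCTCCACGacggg
Dnajc3, chr14:118937822-118937850, plus strand, 105 bases before the start: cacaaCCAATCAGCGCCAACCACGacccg
Calr, chr8:84847070-84847098, plus strand, 162 bases before the start of a minus-strand gene: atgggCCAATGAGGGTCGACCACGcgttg
Derl3, chr10:75893237-75893265, minus strand, 156 bases before the start of a plus-strand gene: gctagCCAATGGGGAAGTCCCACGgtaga

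The C/EBP-ATF response element (CARE), to which Atf4 is known to bind with a C/EBP partner, was searched as TGATG and AA with 1 base between them, on both strands. It was found in 5 of the 30 promoters (16.7%), those of Atf3, Chac1, Trib3, Asns and Herpud1, against 1304 of all 32851 (3.97%). The copies upstream of the start are shown in the same way:
Atf3, chr1:191183431-191183448, plus strand, 110 bases before the start of a minus-strand gene: cttggTGATGCAAgtgcg
Chac1, chr2:119351044-119351061, minus strand, 193 bases before the start of a plus-strand gene: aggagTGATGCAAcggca
Asns, chr6:7693220-7693237, minus strand, 23 bases before the start: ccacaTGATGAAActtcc
Herpud1, chr8:94386312-94386329, minus strand, 112 bases before the start of a plus-strand gene: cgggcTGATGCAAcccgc
All distances are from the RefSeq start, which can differ from the start of the GENCODE gene spans given further on. In GENCODE the copy of Hspa5 lies in an exon, 55 bases after the start of the span, that of Asns in an exon, 22 bases after it, and that of Atf3 in an intron, 34596 bases after it. The other 5 copies shown lie before the GENCODE start.
A second ER stress element, ERSE-II (ATTGG and CCACG with 1 base between them), was found in Herpud1 and Dnajb11, 2 of the 30 promoters (6.67%) against 12 of all promoters (0.0365%). The cyclic AMP element TGACGTCA was found in Ppp1r15a alone, 1 of 30 (3.33%) against 1.79% of all promoters. The letters TGACGTGG, the unfolded protein response element of Xbp1, were found in 0 of 30, against 0.676% of all promoters. A match is a description of the letters in this window and not a measured binding site.

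In untreated and treated cultures alike, the 35 genes spanned a wide range of levels. Levels were compared between genes as CPM per kb of exon (counts relative to the library total and to the length of all annotated exons), averaged over the 4 libraries. Calr, a lectin-like chaperone, was highest at 358, with libraries between 313 and 376, and overlapped P4hb, a disulfide isomerase, at 350. Pdia3 (225), Hsp90b1 (177) and Hspa5 (150) came next, and the libraries of Hsp90b1 and Hspa5 overlapped. Atf4 (113) overlapped Canx (106) and stood above all other transcription factors of the group. Pdia4 was at 73.6, Pdia6 at 60.7, Herpud1 at 44.6 and Xbp1 at 43.3. Of the sensors Ern2 was highest at 36.7 (29.1 to 45.1), above Eif2ak3 (10.2), Ern1 (7.90) and Atf6 (7.70), and no Ern2 library overlapped those of the other 3 sensors. Its lead was smaller in mean scaled counts, which leave out the length, with Ern2 at 2448, Atf6 at 1597, Ern1 at 1447 and Eif2ak3 at 1389. The exon lengths were 2964, 9231, 8173 and 6026 bases in that order. Ddit3 (4.25) and Trib3 (2.85) were near the bottom, and Derl3 was last at 0.201. Of 34 pairs of neighbours in this order, 26 overlapped over the libraries, and the 8 gaps lay below P4hb, Pdia3, Hspa5, Canx, Pdia4, Pdia6, Asns and Trib3.

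**Figure D1:**
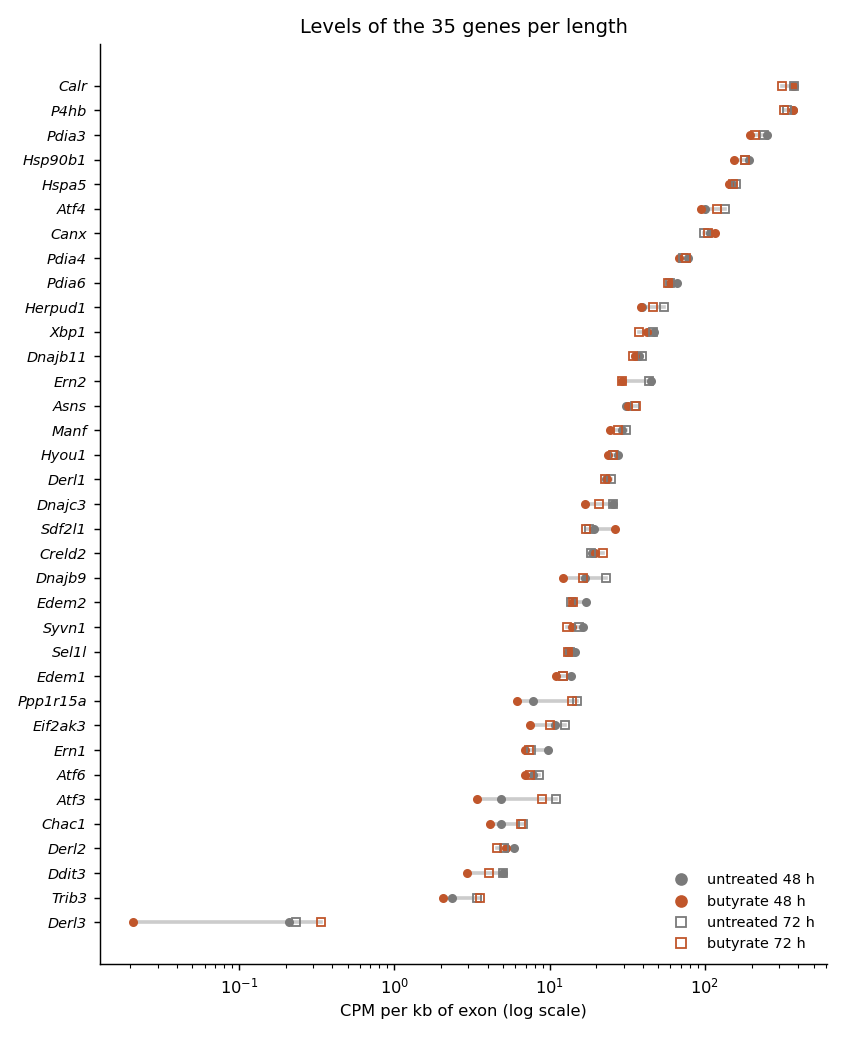
Level of each of the 35 genes in CPM per kb of exon (log axis), in the order of the mean over 4 libraries. Filled circles are 48 h, open squares are 72 h, grey is untreated and orange is butyrate, and the grey bar joins the lowest and highest library. Levels run from 358 for Calr to 0.201 for Derl3, and the bars overlap in 26 of 34 pairs of neighbours.

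With butyrate the group as a whole sat a little lower than without it, and none of the 35 genes was higher by 1.5-fold. Together the genes took 0.737% of the untreated and 0.669% of the treated library's counts at 48 h, and at 72 h these shares were 0.729% and 0.672%. Both butyrate libraries were thus below both untreated libraries. The log2 fold change of a gene, butyrate over untreated, was taken from counts scaled with DESeq2 size factors after adding a pseudocount of 1. Its median over the 35 genes was −0.20 at 48 h and −0.14 at 72 h, beside −0.01 and 0.00 over all genes tested. At each time 30 of the 35 genes were lower (85.7%), beside 51.3% and 49.7% of all genes tested. The interval lay below 0 for 25 of the 35 at each time (71.4%), beside 31.3% and 26.4% of all genes tested. Intervals narrow as counts rise, and among the 11650 genes with a mean scaled count of at least 50 the shares were 35.2% and 28.6%. With total count scaling the interval lay below 0 for 25 members at 48 h and for 17 at 72 h (48.6%, all genes tested 21.2%). The 8 genes whose interval at 72 h then held 0 were Hsp90b1, Hyou1, Pdia6, Sel1l, Derl2, Ern1, Ddit3 and Ppp1r15a, and without mitochondrial genes in the total it held 0 for Hyou1, Sel1l, Ern1 and Ppp1r15a. In bulk RNA, fewer cells of a type and less RNA per cell cannot be told apart.

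Few single members moved far. At 48 h 4 of the 35 were at least 1.5-fold lower (11.4%), near the 8.9% of all genes tested, and 0 were at least 1.5-fold higher, beside 13.1% of all genes. The 4 were Derl3, which rests on few counts, Ddit3, Ern2 and Dnajc3. At 72 h only Ern2 was at least 1.5-fold lower, 1 of 35 (2.86%) beside 8.53% of all genes, and 0 were at least 1.5-fold higher beside 9.5%. Genes with few counts reach such folds more easily, and among the 11650 genes with a mean scaled count of at least 50 the shares were 8.94% higher and 6.42% lower at 48 h and 5.87% higher and 5.13% lower at 72 h. The treatment comparisons at the different times share no library. Lower at both times were 27 of 35 genes (77.1%, all genes tested 31.3%). Both intervals lay below 0 for 21 (60.0%, all genes 13.6%), or for 13 with total count scaling (37.1%, all genes 11.02%). Among the 11650 genes with a mean scaled count of at least 50, both lay below 0 for 15.5%. By the 1.5-fold rule 1 gene, Ern2, was lower at both times (2.86%, all genes 2.73%) and 0 were higher at both times (all genes 5.51%). Canx and Creld2 were the 2 genes with a value above 0 at both times.

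A test over all 4 libraries was possible only with the treatment effect taken to be the same at both times. It was added after the data were seen, as edgeR's quasi-likelihood test of treatment plus time with Benjamini-Hochberg adjustment, and its 1 residual degree of freedom holds the difference between the effects at 48 h and 72 h and not replicate error. At an adjusted p under 0.05, 1 of the 35 genes was lower with butyrate, Ern2 (log2 −0.64, adjusted p = 0.0407), beside 0.83% of all genes tested, and 0 were higher, beside 1.68%. At an unadjusted p under 0.05, 5 were lower (14.3%, all genes 7.65%) and 0 higher (all genes 8.35%). For 72 h over 48 h the same fit called 2 members higher, Atf3 and Ppp1r15a, beside 0.143% of all genes tested, and 0 lower, beside 0.1%. At an unadjusted p under 0.05, 8 were higher with time (22.9%, all genes 5.68%) and 0 lower (all genes 4.35%).

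**Figure D2:**
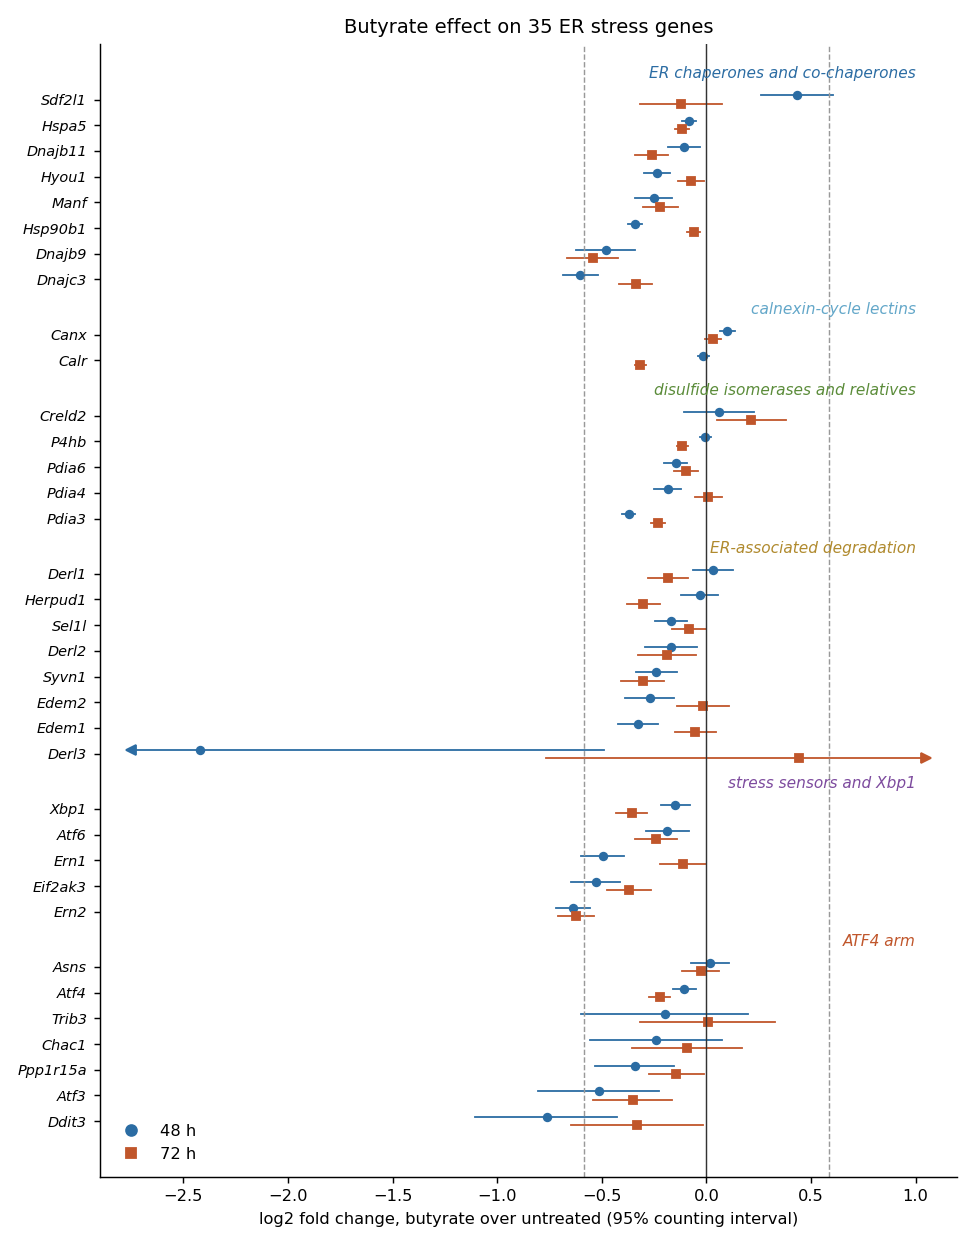
Log2 fold change of butyrate over untreated for the 35 genes by role, at 48 h (blue circles) and 72 h (orange squares), with 95% counting intervals as lines and 1.5-fold as dashed lines. Arrows mark intervals of Derl3 that run off the axis. Most points lie between −0.6 and 0, and Ern2 lies beyond the lower dashed line at both times.

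The sensors and Xbp1 were the members with the lowest median, −0.50 at 48 h and −0.36 at 72 h, and the intervals of all 5 lay below 0 at both times. That of Ern1 at 72 h only just did so and held 0 with total count scaling, with and without mitochondrial genes. Ern2 (chr7:122169893-122186207, minus strand), the IRE1 gene of mucus-secreting epithelium, had 2946 scaled counts without and 1894 with butyrate at 48 h, against 3003 without and 1949 with it at 72 h. Both butyrate libraries were below both untreated libraries. Its log2 fold change at 48 h was −0.64 (−0.72 to −0.56) and that at 72 h was −0.62 (−0.71 to −0.54), and with total count scaling the value at 72 h was −0.57, short of 1.5-fold. Eif2ak3, which encodes PERK, had scaled counts of 1435 and 993 at 48 h and 1763 and 1366 at 72 h, untreated first. At each time the butyrate library was the lower, but the treated library at 72 h came close to the untreated one at 48 h. Its log2 fold change was −0.53 (−0.65 to −0.42) and −0.37 (−0.47 to −0.26). By annotation 8.05% of its exon bases are shared with Gm43292 on the opposite strand, and the strand setting of the quantification is not given in the sources used here.

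Ern1, the IRE1 gene of most tissues, had scaled counts of 1751 and 1241 at 48 h and 1452 and 1346 at 72 h, untreated first. Untreated cultures at 48 h stood above the other 3 libraries. The log2 fold change at 48 h was −0.50 (−0.60 to −0.39) and that at 72 h was −0.11 (−0.22 to −0.00024). Atf6, the sensor that becomes a transcription factor, was lower by a similar amount at the 2 times, −0.19 (−0.29 to −0.09) and −0.24 (−0.34 to −0.14). Xbp1, the mRNA that IRE1 splices, had scaled counts of 3351 and 3024 at 48 h and 3506 and 2739 at 72 h, untreated first. Both treated libraries were again below both untreated libraries, with log2 fold changes of −0.15 (−0.22 to −0.08) and −0.36 (−0.43 to −0.28).

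Markers of goblet cells were divided at 48 h and mostly lower at 72 h, while Muc2 was lower at both times, as Ern2 was. Of 8 markers 4 were lower and 4 higher at 48 h, with Fcgbp and Spink4 close to 0, and 7 were lower at 72 h, with a median log2 fold change of −0.76. The summed scaled count of 8 goblet cell markers at 48 h was 100820 untreated and 82556 treated, and at 72 h it was 151756 untreated and 81989 treated. The log2 ratio was −0.29 at 48 h and −0.89 at 72 h, and that of Muc2 alone was −0.49 and −0.87. Muc2 held 72.5% of the sum in the untreated 48 h library, and without it the log2 ratio of the other 7 was 0.14 at 48 h and −0.97 at 72 h. From 48 h to 72 h without butyrate the summed markers differed by 0.59 on the log2 scale, the 7 without Muc2 by 0.22 and Ern2 by 0.03 (−0.05 with total count scaling), and 5 of the 8 markers were higher and 3 lower. With butyrate the summed markers differed by −0.01, the 7 without Muc2 by −0.89 and Ern2 by 0.04, and 7 of the 8 markers were lower. Of the 8 markers, all of which passed the filter on low counts, 3 were lower at both times and 5 moved in opposite directions at the 2 times. Their part in the result for Ern2 was not tested.

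Colonocyte markers were mostly higher at 48 h and lower at 72 h. Of the 7, 6 were higher at 48 h and 0 at 72 h, with median log2 fold changes of 0.31 and −0.49. The adhesion molecule Ceacam1 held 66.5% of their sum in the untreated 48 h library and had −0.68 and −0.80, against the other markers at 48 h. The log2 ratio of the sum was 0.11 and −0.77 with Ceacam1 and 0.98 and −0.73 without it. For stem cells the ratios at 48 h and 72 h were −0.46 and 0.71 (−0.19 and 0.65 without Lgr5, the largest). Of the 5 markers 4 were lower at 48 h and 5 higher at 72 h, with medians of −0.31 and 0.70, and Ascl2, at 0.19 and 0.47, was the exception at 48 h. For enteroendocrine cells they were 0.24 and −0.87 (0.02 and −0.95 without Chgb). Of the 5 markers 4 were higher at 48 h and 5 lower at 72 h, with medians of 0.04 and −0.81, and Neurod1, at −0.41 and −0.78, was the exception at 48 h. Tuft cells had −0.27 and −1.75 (−0.29 and −1.39 without Dclk1), with Dclk1 at −0.24 and −2.12 and Trpm5 at −0.46 and −1.68. Epithelium as a whole had 0.05 and −0.15 (0.04 and −0.14 without Krt8). Of its 8 markers 4 were lower and 4 higher at 48 h, and 7 were lower at 72 h, with medians of 0.02 and −0.17. Epcam, at −0.05 and −0.14, and Vil1, at −0.23 and −0.28, were among the lower ones. Markers of plasma cells, which are rich in ER, summed to at most 37 counts, and their defining gene Tnfrsf17 was at 0 in all 4 libraries. Whether any of these shifts in cell type bears on the members was not tested.

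Among the chaperones, Hspa5 differed little between treated and untreated cultures, and the co-chaperones Dnajc3 and Dnajb9 differed more. Hspa5 (chr2:34771970-34777547, plus strand), which encodes BiP, the main ER chaperone and the usual reporter of ER stress, had scaled counts of 13969.7 and 13186 at 48 h and 15525 and 14303 at 72 h, untreated first. The treated library was the lower at each time, while the treated library at 72 h was above the untreated one at 48 h. Its log2 fold change at 48 h was −0.08 (−0.12 to −0.05) and that at 72 h was −0.12 (−0.15 to −0.08), a difference of −5.61% and −7.87%. Hsp90b1, the ER member of the HSP90 family, had scaled counts of 17147 and 13531 at 48 h and 16997 and 16305 at 72 h, untreated first. The treated library at 48 h stood below the other 3, which gave −0.34 (−0.37 to −0.31) at 48 h and −0.06 (−0.09 to −0.03) at 72 h, the second at −0.0078 (−0.04 to 0.02) with total count scaling. Of its exon bases, 10.3% are shared with 1810014B01Rik on the opposite strand, which had between 63 and 151 counts.

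Dnajc3 (chr14:118937976-118981697, plus strand), a co-chaperone of BiP that also inhibits PERK, had scaled counts of 2880.4 and 1897 at 48 h and 3043 and 2406 at 72 h, untreated first. Both treated libraries were below both untreated libraries, with log2 fold changes of −0.60 (−0.68 to −0.52) and −0.34 (−0.42 to −0.26). Dnajb9, a co-chaperone that holds IRE1 in check and is a known target of Xbp1, had scaled counts of 947 and 679 at 48 h and 1370.5 and 939.6 at 72 h, untreated first. The treated library was lower at each time by a similar log2 fold change, −0.48 (−0.62 to −0.34) and −0.54 (−0.67 to −0.42), short of 1.5-fold. The treated library at 72 h and the untreated one at 48 h were close together.

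Manf, a secreted factor released on ER stress, had log2 fold changes of −0.25 (−0.34 to −0.17) and −0.22 (−0.30 to −0.14). Of its exon bases 4.71% are shared with 4930524O07Rik and 4.14% with Dcaf1 (1633 to 1927 counts), both on the opposite strand. Dnajb11, another J-domain co-chaperone of BiP, had values of −0.11 (−0.18 to −0.03) and −0.26 (−0.34 to −0.18), and Hyou1, a nucleotide exchange factor of BiP, had −0.23 (−0.30 to −0.17) and −0.07 (−0.14 to −0.0099), the second at −0.02 with total count scaling. Sdf2l1, a partner of the ER-resident J-domain proteins, ran against the rest at 48 h. It had scaled counts of 473 and 639.6 at 48 h and 463 and 426 at 72 h, untreated first, and the treated library at 48 h stood above the other 3. The log2 fold change was 0.43 (0.26 to 0.61) at 48 h, the highest of the 35 genes, and −0.12 (−0.32 to 0.07) at 72 h. Of the 8 chaperones 7 were lower at 48 h and 8 at 72 h, with medians of −0.24 and −0.17.

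**Figure D3:**
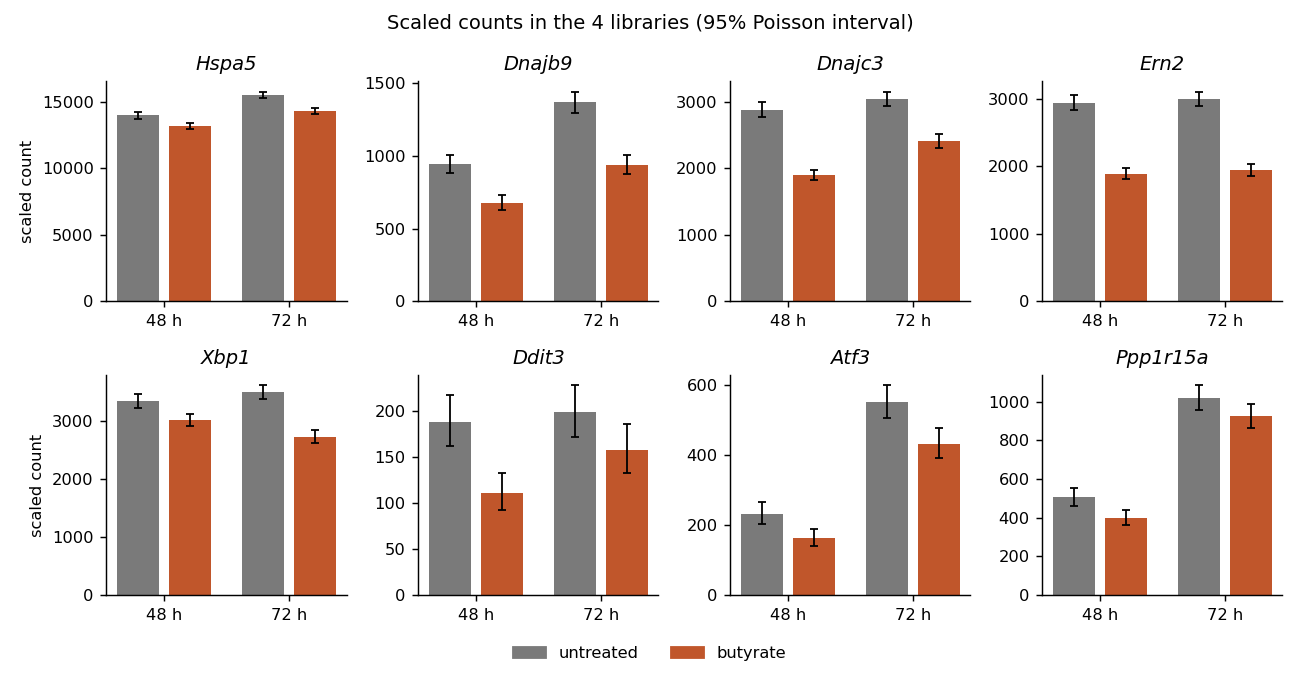
Scaled counts of 8 genes in the 4 libraries (grey untreated, orange butyrate), on axes that start at 0, with exact 95% Poisson intervals of the count. Ern2, Xbp1 and Dnajc3 are lower in both treated libraries than in both untreated libraries, whereas Atf3 and Ppp1r15a are higher at 72 h than at 48 h with and without butyrate.

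For the lectins the median at 48 h was 0.04 and that at 72 h −0.14, and for the disulfide isomerases and their relatives these were −0.15 and −0.10. With total count scaling the medians at 72 h were −0.09 for the lectins and −0.045 for the isomerases and their relatives. Calr, which retains unfolded glycoproteins, had scaled counts of 23691 and 23449 at 48 h and 25244 and 20273 at 72 h, untreated first. The treated library at 72 h stood below the other 3, with log2 fold changes of −0.01 (−0.04 to 0.01) at 48 h and −0.32 (−0.34 to −0.29) at 72 h. Canx, its membrane-bound relative, had values of 0.10 (0.06 to 0.14) and 0.03 (−0.0071 to 0.07). Pdia3, the isomerase that works with both lectins, had scaled counts of 17482 and 13506 at 48 h and 17489.5 and 14890.4 at 72 h, untreated first. Both treated libraries were below both untreated libraries, with −0.37 (−0.40 to −0.34) at 48 h and −0.23 (−0.26 to −0.20) at 72 h.

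P4hb, the classical protein disulfide isomerase, had log2 fold changes of −0.0049 (−0.03 to 0.02) and −0.11 (−0.14 to −0.09), and the sign of the first flipped with total count scaling. Pdia6 had −0.15 (−0.20 to −0.09) and −0.10 (−0.16 to −0.04). For Pdia4 the interval lay below 0 at 48 h and held 0 at 72 h, with values of −0.19 and 0.01. Creld2, an ER-resident relative of the isomerases and an ER stress target, had scaled counts of 565 and 589.7 at 48 h and 586 and 679 at 72 h, untreated first. Here the treated library at 72 h was the highest, and the log2 fold change at 48 h was 0.06 (−0.11 to 0.23) and that at 72 h was 0.21 (0.05 to 0.38). It was the only member whose interval lay above 0 at 72 h.

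In the ERAD branch the medians were −0.20 at 48 h and −0.13 at 72 h, the second at −0.08 with total count scaling. Syvn1, the ubiquitin ligase HRD1 at its core, had scaled counts of 1764 and 1494 at 48 h and 1746 and 1413 at 72 h, untreated first. Both treated libraries were below both untreated ones, with log2 fold changes of −0.24 (−0.34 to −0.14) and −0.31 (−0.41 to −0.20). It shares 1.87% of its exon bases with Mrpl49 (731 to 1215 counts) on the opposite strand. Its scaffold partner Sel1l had smaller values of −0.17 (−0.25 to −0.09) and −0.08 (−0.16 to −0.0041), the second at −0.03 with total count scaling. Herpud1, which recruits substrates to the HRD1 complex and holds both the CARE and the ERSE-II letters in its promoter, had scaled counts of 2018 and 1973 at 48 h and 2973 and 2412 at 72 h, untreated first. It was highest in the untreated library at 72 h, with −0.03 (−0.12 to 0.06) at 48 h and −0.30 (−0.38 to −0.22) at 72 h.

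Of the derlins, membrane proteins of the exit channel, Derl1 had log2 fold changes of 0.03 (−0.06 to 0.13) and −0.18 (−0.28 to −0.09) and Derl2 of −0.17 (−0.30 to −0.04) and −0.19 (−0.33 to −0.05). Derl2 shares 2.87% of its exon bases with Mis12 on the opposite strand. Derl3, which is known from secretory cells, had counts of 9, 1, 11 and 14 in the order untreated and butyrate at 48 h, then untreated and butyrate at 72 h. Treated over untreated, the scaled ratio at 48 h was 0.0986 (0.00225 to 0.711) and that at 72 h was 1.39 (0.587 to 3.39), and with so few counts no direction can be read at 72 h. Edem1, which brings mannose-trimmed proteins to degradation, had −0.33 (−0.42 to −0.23) at 48 h and −0.05 (−0.15 to 0.04) at 72 h. Edem2, which trims the mannose, had −0.27 (−0.39 to −0.16) and −0.02 (−0.14 to 0.11), the second of which changed sign with total count scaling.

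The ATF4 arm was at a median log2 fold change of −0.24 after 48 h and of −0.14 after 72 h, the second at −0.09 with total count scaling. Ddit3 (chr10:127290829-127293753, plus strand), which encodes the pro-apoptotic factor CHOP, had scaled counts of 188 and 111 at 48 h and 198 and 158 at 72 h, untreated first. Both treated libraries were below both untreated libraries. Its log2 fold change at 48 h was −0.76 (−1.11 to −0.43) and that at 72 h was −0.33 (−0.65 to −0.02), from 122 to 201 counts per library. A stretch of 68 of its exon bases (3.97%) is shared with Mars on the opposite strand, which had between 1768 and 2283 counts. Atf4 itself had scaled counts of 5231 and 4863 at 48 h and 7437 and 6368 at 72 h, untreated first. The treated library was the lower at each time, with log2 fold changes of −0.11 (−0.16 to −0.05) and −0.22 (−0.27 to −0.17), and both 72 h libraries were above both 48 h libraries.

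Atf3 (chr1:191170296-191218039, minus strand), a stress transcription factor downstream of Atf4, had scaled counts of 232 and 162 at 48 h and 551 and 432 at 72 h, untreated first. Time separated these libraries more than treatment did, and within each time the treated library was the lower, with log2 fold changes of −0.51 (−0.81 to −0.23) and −0.35 (−0.54 to −0.16). Ppp1r15a (chr7:45522916-45526268, minus strand), which encodes GADD34, the regulatory subunit that brings a phosphatase to eIF2α, had scaled counts of 506 and 399 at 48 h and 1021 and 925 at 72 h, untreated first. The treated library was again the lower within each time, with −0.34 (−0.53 to −0.15) and −0.14 (−0.28 to −0.01), the second at −0.09 (−0.22 to 0.04) with total count scaling. For the remaining 3 genes every interval held 0. Trib3, a pseudokinase that is known to inhibit Akt, had values of −0.20 (−0.60 to 0.20) and 0.0061 (−0.32 to 0.33). Chac1, which degrades glutathione, had −0.24 (−0.56 to 0.08) and −0.09 (−0.36 to 0.17). Asns, asparagine synthetase, had 0.02 (−0.07 to 0.11) and −0.03 (−0.11 to 0.06), and the sign of the second flipped with total count scaling.

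Over time the order of the roles was another one. From 48 h to 72 h all 7 genes of the ATF4 arm were higher, without butyrate and with it, apart from Ddit3 without butyrate under total count scaling (−0.0011), and the interval lay above 0 for 6 of 7 and for 7 of 7, beside 22.4% and 30.0% of all genes tested. Of the 26 other genes of the ATF4 arm and amino acid supply, 18 were higher without butyrate and 20 with it (69.2% and 76.9%, all genes tested 50.5% and 48.7%), with medians of 0.11 and 0.17. Of 13 cytosolic heat shock genes, 12 and 9 were higher (92.3% and 69.2%), with medians of 0.18 and 0.12. Under total count scaling the counts without butyrate were 14 of 26 and 9 of 13 (53.8% and 69.2%, all genes 37.7%), with medians of 0.04 and 0.10. The median log2 change of the 7 genes was 0.55 in untreated and 0.70 in treated cultures, beside 0.11 and 0.18 for the chaperones, 0.07 and 0.12 for the sensors and Xbp1, and −0.03 and 0.04 for ERAD. Under total count scaling these medians were 0.47 and 0.67 for the ATF4 arm, 0.03 and 0.14 for the chaperones, −0.01 and 0.08 for the sensors and Xbp1, and −0.11 and 0.0043 for ERAD. These comparisons between the time points share no library with each other, but each shares its libraries with the treatment comparisons. Atf3 was higher by 1.24 (1.02 to 1.48) without and 1.41 (1.15 to 1.67) with butyrate, and Ppp1r15a by 1.01 (0.86 to 1.17) and 1.21 (1.04 to 1.38). For Trib3 the values were 0.61 (0.26 to 0.97) and 0.81 (0.45 to 1.19), and for Chac1 0.55 (0.27 to 0.84) and 0.70 (0.40 to 1.00). Atf4 was higher by 0.51 (0.46 to 0.56) and 0.39 (0.34 to 0.44) and Asns by 0.25 (0.16 to 0.34) and 0.21 (0.12 to 0.30). For Ddit3 the value was 0.08 (−0.22 to 0.37) without butyrate, with an interval that held 0, and 0.51 (0.15 to 0.87) with it.

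By the 1.5-fold rule, 3 of the 35 genes were higher at 72 h without butyrate (8.57%, all genes tested 6.82%) and 0 were lower (all genes 5.17%). With butyrate 5 were higher (14.3%, all genes 9.66%) and 1 was lower (2.86%, all genes 11.9%). The 3 were Atf3, Ppp1r15a and Trib3, and they were also higher with butyrate, as 3 genes called in both (8.57%, all genes 2.27%). With total count scaling Trib3 without butyrate was at 0.53, short of 1.5-fold. The others with butyrate were Chac1 and Derl3 (higher) and Sdf2l1 (lower), with Sdf2l1 at −0.59 (−0.77 to −0.41), past the threshold by so little that it fell short of 1.5-fold with TMM factors. Derl3 went from 1 count to 14, a scaled ratio of 16.7 (2.54 to 705).

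Outside the ATF4 arm, Dnajb9 and Herpud1 were the members with the largest values over time in untreated cultures, at 0.53 (0.41 to 0.66) and 0.56 (0.48 to 0.64), and with butyrate they had 0.47 (0.33 to 0.61) and 0.29 (0.20 to 0.38). Eif2ak3 had 0.30 (0.20 to 0.40) and 0.46 (0.34 to 0.58). The 5 genes with the CARE letters in their promoter were all higher at 72 h, by 0.25 to 1.24 in untreated and 0.21 to 1.41 in treated cultures. Of all genes tested 50.5% and 48.7% were higher. Apart from Herpud1 these genes belong to the ATF4 arm, so their values repeat those above. Among members without the letters some were higher, as Ppp1r15a and Atf4 were, and some lower. Whether the letters bear on the change was not tested. The 9 genes with the ERSE letters had medians of 0.05 and 0.12 over time, and of −0.15 at 48 h and −0.10 at 72 h with butyrate. Over all 35 genes the median over time was 0.08 without and 0.15 with butyrate, and the first was −0.0011 with total count scaling.

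**Figure D4:**
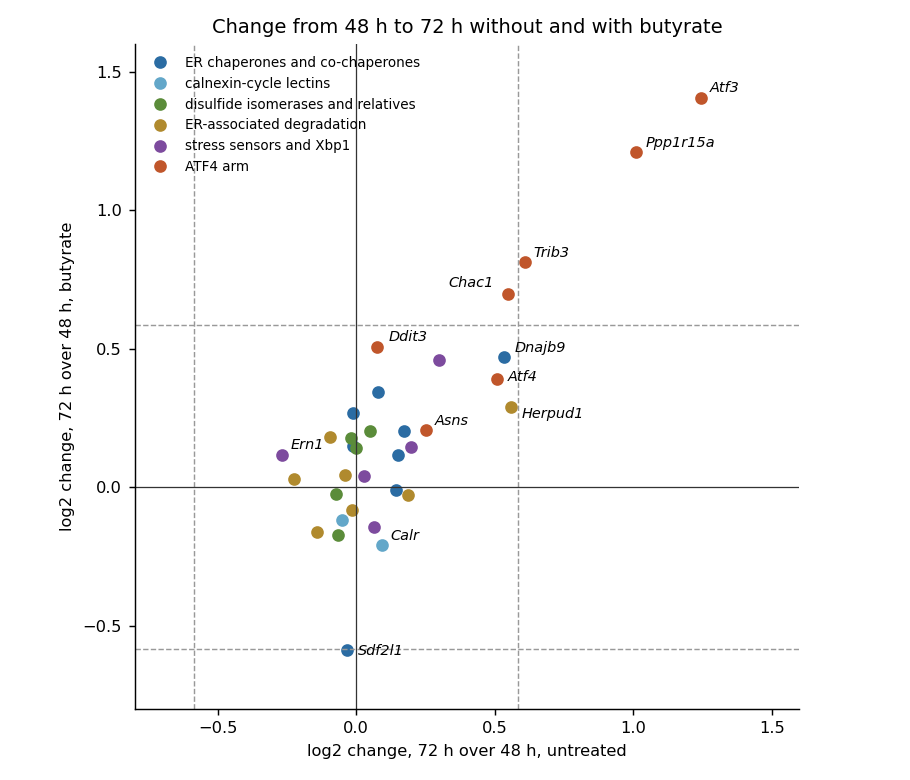
Log2 change from 48 h to 72 h of 34 of the 35 genes, in untreated cultures (horizontal axis) and with butyrate (vertical axis), coloured by role, with 1.5-fold as dashed lines. Derl3, with 1 count in a treated library, is left out. The 7 genes of the ATF4 arm lie above 0 on both axes with these size factors (Ddit3 without butyrate was at −0.0011 with total count scaling), and Atf3 and Ppp1r15a lie farthest out.

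Of the other genes of ER protein handling, 9 lists were described in the same way. For the 15 other ERAD genes the median at 48 h was −0.27 and the median at 72 h −0.16, 11 and 13 of them were lower, and 0 passed 1.5-fold at either time. Selenos, an ER membrane protein that binds the derlins, had −0.56 (−0.67 to −0.45) and −0.55 (−0.66 to −0.44), and Ngly1, which removes glycans from exported proteins, had −0.39 (−0.52 to −0.25) and −0.36 (−0.50 to −0.22). The 15 other disulfide isomerases and oxidases had medians of −0.26 and −0.15, with 2 higher and 2 lower by 1.5-fold at each time. Pdia2 had counts of 16, 41, 8 and 15, with 1.14 (0.32 to 2.12) and 0.95 (−0.29 to 2.48). Agr3, a relative of a goblet cell isomerase, had counts of 13, 3, 19 and 1, a scaled ratio of 0.205 (0.0374 to 0.745) at 48 h and 0.0576 (0.00139 to 0.362) at 72 h. Ero1l, the oxidase that recharges P4hb, was chosen after its values were seen. It had scaled counts of 6022 and 9606 at 48 h and 5277 and 9859.6 at 72 h, untreated first, and both treated libraries were above both untreated ones, by 0.67 (0.63 to 0.72) and 0.90 (0.85 to 0.95).

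ER-to-Golgi transport (11 genes) had medians of −0.20 and −0.17, with 1 gene lower by 1.5-fold at 72 h, Kdelr3, a retrieval receptor for ER residents, at −0.39 (−0.72 to −0.07) and −1.25 (−1.63 to −0.89). Its relative Kdelr2 had −0.27 (−0.35 to −0.20) and −0.29 (−0.38 to −0.21). The 15 genes of the translocon and signal peptidase had −0.06 and −0.18 with 0 past 1.5-fold, where Sec11c, a signal peptidase subunit, had −0.53 and −0.38 and Ssr4 −0.30 and −0.33. The 9 genes of oligosaccharyltransferase, which adds glycans and of which 0 passed 1.5-fold, had 0.08 and −0.04 (0.01 at 72 h with total count scaling), with Stt3a at 0.08 and 0.11 and Stt3b at 0.13 and 0.07. The 7 genes of glycan trimming, 0 of which passed 1.5-fold, had −0.08 and −0.02 (0.03 at 72 h with total count scaling), with Edem3 at −0.26 and −0.30 and Uggt2 at 0.39 and 0.19.

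The list of ATF6 activation and ER-bound transcription factors (9 genes) had medians of −0.22 and −0.16, with 1 gene higher and 1 lower by 1.5-fold at 48 h and 3 lower at 72 h. Creb3l4, an ER-bound factor, had −0.86 (−1.05 to −0.67) and −0.82 (−1.03 to −0.61), and Creb3 had −0.46 (−0.65 to −0.28) and −0.75 (−0.94 to −0.57). Other eIF2α kinases and phosphatases (7 genes) had −0.05 and −0.13. Eif2ak4, the kinase that senses uncharged tRNA, was the 1 gene of this list past 1.5-fold, at 48 h, with −0.64 (−0.78 to −0.50) and −0.30 (−0.44 to −0.16), with Eif2ak1 at −0.12 and −0.29. Of the 27 other genes of the ATF4 arm and amino acid supply 26 passed the filter, with medians of 0.02 and 0.03, so that they sat near all genes tested. At 48 h 3 were higher and 3 lower by 1.5-fold, and at 72 h 1 was higher. Gdf15, a secreted stress hormone, was the one higher at both times, with scaled counts of 237 and 458 at 48 h and 248 and 429 at 72 h, untreated first, and with log2 fold changes of 0.95 (0.72 to 1.18) and 0.79 (0.56 to 1.02). Wars, a tRNA synthetase, had −0.39 and −0.37.

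For chaperones of other compartments the medians did not lie below 0 at both times. Mitochondrial chaperones and proteases (8 genes) had 0.15 at 48 h and 0.12 at 72 h, with 7 and 6 genes higher, 0 of them by 1.5-fold. Hspd1, the mitochondrial HSP60, had 0.31 (0.28 to 0.34) and 0.21 (0.17 to 0.24), and Hspa9, the mitochondrial HSP70, had 0.31 (0.28 to 0.35) and 0.24 (0.21 to 0.27). Cytosolic heat shock genes (13) had medians of 0.07 and −0.02, and the second was 0.03 with total count scaling. At 48 h 3 were higher by 1.5-fold and 0 lower, and at 72 h 1 was higher and 1 lower. Hspb1, a small heat shock protein, had counts of 6, 163, 10 and 42, so that both treated libraries were above both untreated ones, by 4.38 (3.44 to 6.06) and 2.09 (1.18 to 3.36). Hspa4l, an HSP110 relative, had −0.47 and −0.35.

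**Figure D5:**
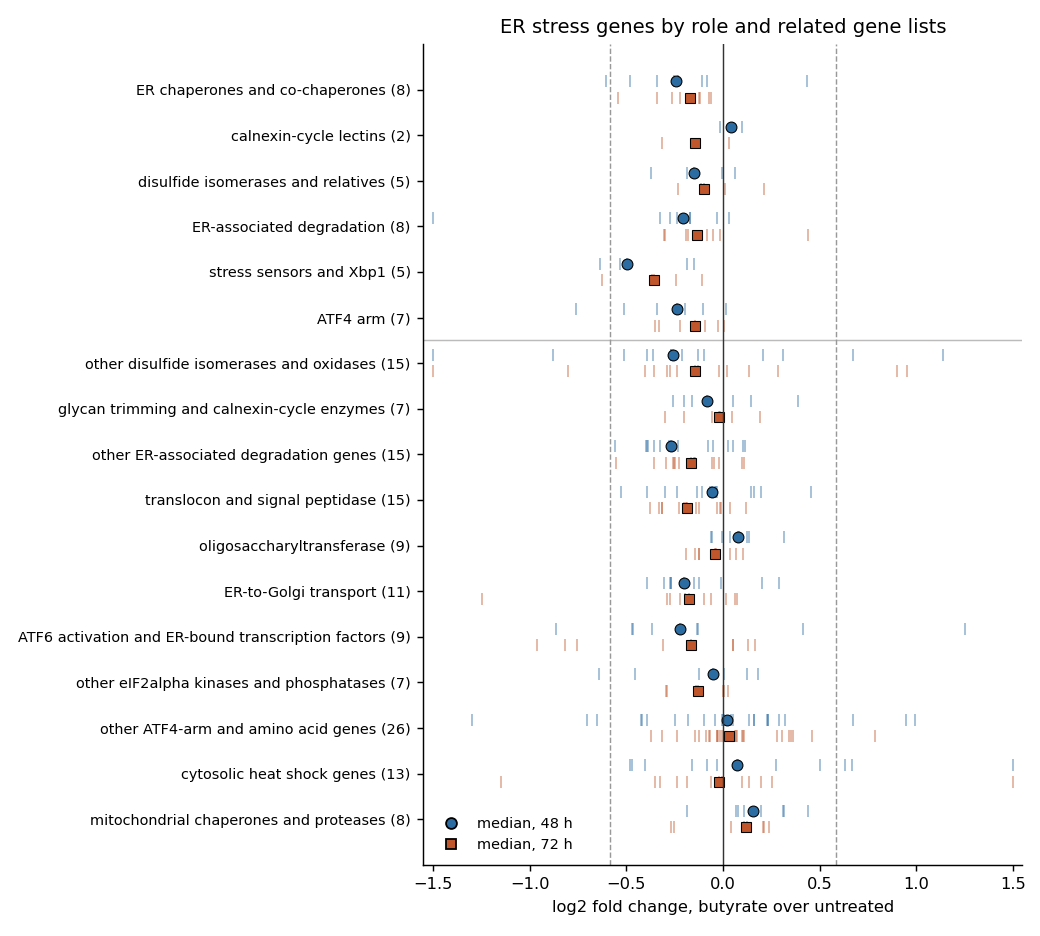
Log2 fold change of butyrate over untreated by list, with the number of genes in brackets. Ticks are genes and large symbols are list medians, at 48 h (blue circles) and 72 h (orange squares), dashed lines are 1.5-fold, and genes beyond 1.5 on the log2 axis are drawn at its edge. The first 6 lists are the roles of the 35 genes. The sensors and Xbp1 have the lowest medians, −0.50 and −0.36, and the mitochondrial chaperones the highest, 0.15 and 0.12.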

How the data were processed

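The authors deposited estimated counts per gene as whole numbers, for 4 libraries of poly-A selected RNA. Per the labels and the methods, transcripts were quantified by pseudoalignment with kallisto and summed to genes. The submitters' processing notes give kallisto 0.44.0 and GRCm38.p6, and the transcriptome release and strand setting are not given in the sources used here. The counts carry no normalisation and no filter. Reads shared between overlapping genes or near-identical copies are split by an estimate, 26 gene names had been turned into dates and 2 were listed more than once, and none of these is a member.

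The filter on low counts asked for more than 10 in 2 or more libraries. Counts were scaled with DESeq2 1.42.0 size factors (R 4.3.3), 0.978, 1.10, 1.01 and 0.926 in the order untreated and butyrate at 48 h, then untreated and butyrate at 72 h. A pseudocount of 1 was added for log2 fold changes, which understates those of low genes. Intervals are exact Clopper-Pearson 95% intervals on the pair of counts, and 3 counts correspond to 0.124 to 0.144 CPM. Because PCR copies were not marked by molecular identifiers, the intervals hold for counting error alone. A gene was called at 1.5-fold. An edgeR quasi-likelihood fit of treatment plus time over the 4 libraries, with 1 residual degree of freedom, was added after the data were seen. Both calculations were tested on simulated counts with Python 3.11.15, numpy 2.4.6, pandas 2.3.3 and scipy 1.17.1, and figures were drawn with matplotlib 3.10.9.

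The members, their 6 roles, the 9 pathway lists, 2 comparison lists and 9 marker lists were chosen with earlier results of these data known. All members were named, and in each other list the 2 genes with the largest minimum absolute change over both times, among genes with 1 sign at both. Positions and exon lengths came from the GENCODE annotation of GRCm38. Alternatives were TMM factors (edgeR 4.0.16), total count with and without mitochondrial genes, a pseudocount of 5, other filters and 2-fold. The study's other experiments were not analysed here.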

Additional observations from a re-analysis of the deposited data

Results flagged for a closer look

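For 3 of the 35 genes the change from 48 h to 72 h went in opposite directions without and with butyrate, with both intervals excluding 0 (8.57%), beside 9.74% of all genes tested. The differences between these changes were not tested, since each condition had 1 library, and each is the same quantity as the difference between the treatment effects at 72 h and 48 h. Calr was higher over time without butyrate, 0.09 (0.07 to 0.12), and lower with it, −0.21 (−0.24 to −0.18), a difference of −0.30 on the log2 scale. With total count scaling the interval of Calr without butyrate, 0.01 (−0.01 to 0.04), held 0, so that its opposite direction rests on the size factors. Edem1 was lower without butyrate, −0.09 (−0.19 to −0.00046), and higher with it, 0.18 (0.08 to 0.28), a difference of 0.27. Ern1 was lower without butyrate, −0.27 (−0.37 to −0.17), and higher with it, 0.12 (0.0048 to 0.23), a difference of 0.39. With total count scaling the interval of Ern1 with butyrate held 0, and 5 members fulfilled this rule, Hsp90b1, Hyou1, Pdia3, Pdia4 and Edem1 (14.3%, all genes 10.5%).

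Of the other genes named by the rule, Kdelr3, the retrieval receptor, was higher over time without butyrate, 0.30 (0.0082 to 0.60), and lower with it, −0.55 (−0.96 to −0.16), a difference of −0.85, and its interval without butyrate held 0 with total count scaling. The goblet cell gene Zg16 was higher without butyrate, 0.80 (0.71 to 0.89), and lower with it, −1.06 (−1.23 to −0.90), a difference of −1.86. These differences were not tested either.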

How the results depend on the processing

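Each condition held a single library, so there were no replicate numbers to pair, and the fit of treatment plus time pairs the libraries by time. Of 560 values for single members under other scalings and pseudocounts, 536 stayed within their counting interval and 24, all with total count scaling, did not. Of 140 values, 9 changed sign with total count scaling, 1 with TMM factors and 1 with total count without mitochondrial genes. The median over the 35 genes lay between −0.209 and −0.190 at 48 h, −0.163 and −0.0909 at 72 h, and 0.117 and 0.155 over time with butyrate. Over time without butyrate it lay between −0.0011 with total count scaling and 0.077. The number of genes with any decrease at both times was 27 with the reported factors, 27 with TMM factors and 25 with total count. With total count scaling the median of all genes stood at 0.0537 at 72 h and −0.0751 over time without butyrate.

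By 2-fold, 1 member was lower at 48 h, 0 at 72 h and 0 at both times, and over time with butyrate 3 were higher and 0 lower. With total count scaling 0 members were lower by 1.5-fold at 72 h and 0 at both times, since Ern2 fell short. Under the same scaling Trib3 fell short of 1.5-fold higher over time without butyrate. Over time with butyrate 0 were lower with TMM factors, with total count without mitochondrial genes and with a pseudocount of 5, since Sdf2l1 fell short. With total count scaling the number of members whose interval lay below 0 at both times moved from 21 to 13 (18 without mitochondrial genes; all genes 13.6%, 11.02% and 13.2%), that above 0 at 72 h from 1 to 2 (all genes 25.9% and 31.9%), that below 0 over time without butyrate from 7 to 12 (34.3%, as the share of all genes went from 20.2% to 31.6%), and that with opposite changes over time from 3 to 5 (all genes 9.74% and 10.5%). Without Muc2 the log2 ratio of the summed goblet cell markers at 48 h turned from −0.29 to 0.14. Depth limits Derl3, Trib3, Chac1 and Ddit3 most.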
